A study of Mus musculus with 8 samples.

Results

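The genes described here encode the subunits of the receptors for glutamate, for GABA at its chloride channel (GABA-A) and for glycine, measured in midbrain dopaminergic neurons of the mouse embryo. Members were chosen by symbol: every Gria, Grin, Grik, Grid, Grm, Gabr, Glra or Glrb gene of these families in the annotated probe table, joined by probe to the 8 scanner files. That gave 50 of the 24088 named genes on the array: 4 AMPA, 7 NMDA, 5 kainate, 2 delta, 8 metabotropic glutamate, 19 GABA-A and 5 glycine receptor genes. The symbol rule itself uses no expression value, but the families were chosen with earlier results of these data known. Where a gene had several probes in the table the brightest stood for it.

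All embryos were Pitx3(gfp/+), with a Gfp reporter at 1 allele of Pitx3, a transcription factor gene that in the brain marks midbrain dopaminergic neurons, and all were taken at E14.5. The ventral midbrain was divided into a rostral and a caudal part and dissociated with papain before Gfp-positive cells were sorted. There were 4 rostral and 4 caudal pools of Gfp-positive cells, each from 5 to 7 embryos spread over several litters. Each pool, in Cy3, was hybridised on a 2-colour array against the same reference in Cy5, made from the pooled Gfp-negative cells of the dissected tissue. Both groups and the reference thus carry the same heterozygous reporter allele, no group lacks it, and the sort takes whichever cells have Gfp. Because the reference is 1 RNA on all arrays, it stands for 1 control sample and its own variation was not measured, and every p-value below reflects variation among the 8 pools alone.

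Ionotropic glutamate receptors are cation channels that carry fast excitation. Metabotropic glutamate receptors act more slowly through G proteins, and GABA-A and glycine receptors are chloride channels, which in immature neurons can depolarise the cell because chloride inside is high. Each channel is assembled from several subunits, so the set of subunit genes a cell uses sets the kinetics, ion permeability and pharmacology of its receptors, and in the ventral midbrain glutamate and GABA inputs control the firing of dopaminergic neurons.

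Values are log2 ratios of a Gfp-positive pool over the reference, so 0 is the reference level and 1 is a doubling. Ratios of different probes show unequal enrichment and not which transcript is more abundant. A gene was called when limma's moderated test, adjusted by Benjamini-Hochberg over all genes tested, gave an adjusted p below 0.05. In such pools, fewer cells of a type and less RNA per cell cannot be told apart.

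The sort was checked with marker lists. All 8 dopaminergic markers were higher in the Gfp-positive pools (median log2 ratio 3.64), from 2.24 for Ddc, which makes dopamine from its precursor, to 5.98 for Slc6a3, the dopamine transporter. Pitx3, whose locus carries the reporter, was 3.58 higher. All 8 progenitor and radial glia, all 5 oligodendrocyte precursor and all 6 erythroid markers were lower. So were 8 of 10 GABAergic, 5 of 6 tested glutamatergic and red nucleus and 5 of 7 motor markers. In each of the GABAergic, glutamatergic and motor lists 1 marker was higher: Slc32a1 (0.28), Slc17a6 (0.67) and Mnx1 (0.23). All 3 tested serotonergic, 3 of 4 tested endothelial and 4 of 5 pericyte markers were lower. Of 9 pan-neuronal markers 6 were higher and 2 lower, and of 5 microglia markers 0 were called by limma, 0 also at an unadjusted p below 0.05. The share of probes well above background was 62.6% to 70.5% for the Cy3 samples and 54.1% to 63.6% for the Cy5 reference.

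In the sample channel, 35 of the 50 genes were well above background on all 8 arrays, 5 on 4 to 7 arrays, 2 on 1 to 3 arrays and 8 on none. Against the reference 41 could be tested, and 32 of them were called: 14 higher and 18 lower in Gfp-positive cells. Over all 18732 genes tested in this comparison 71.3% were called, 34.5% higher and 36.8% lower, so the share of receptor genes called (32 of 41) lies near that of the whole array. At least 2-fold, 3 members were higher (Gria3, Grik3 and Gria2) and 5 lower (Grm3, Grm7, Grm5, Grm6 and Gabrg1), where 3.36% of all genes tested were higher and 9.67% lower by that rule. In 9 tested members all 8 pools lay above the reference and in 11 all 8 lay below it, against 24.3% and 27.9% of all genes tested. The median over the tested members was -0.029, against -0.0046 over all genes. With median centring of each array in place of the loess normalization, the median of all genes moved to 0.127, 61.4% of called genes were higher instead of 48.4%, and the members split into 18 higher and 17 lower.

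Between the parts 40 members were tested. Of these, 13 were called, 11 with the higher level in rostral and 2 in caudal pools, where 6.19% of 18220 genes tested were called, 3.45% toward rostral and 2.73% toward caudal. The median rostral minus caudal log2 difference was 0.36 over the tested members and 0.0073 over all genes, and 31 members had a value above 0 and 9 a value below 0. In 14 members every rostral pool lay above every caudal pool and in 3 every caudal pool lay above every rostral pool, against 6.42% and 6.06% of all genes tested. The called genes included Grik1, Gabrg3, Gria1, Grm3, Grm5, Grin3a, Gria2, Grin1 and Gabrb2 on the rostral side, and those on the caudal side were Grik3 and Grm2. All 13 kept their sign within each of the 2 rows of the slide, which held 2 rostral and 2 caudal arrays each, while 0 of the 13 passed limma's test within the first row alone and 1 (Grm5) within the second.

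**Figure D1:**
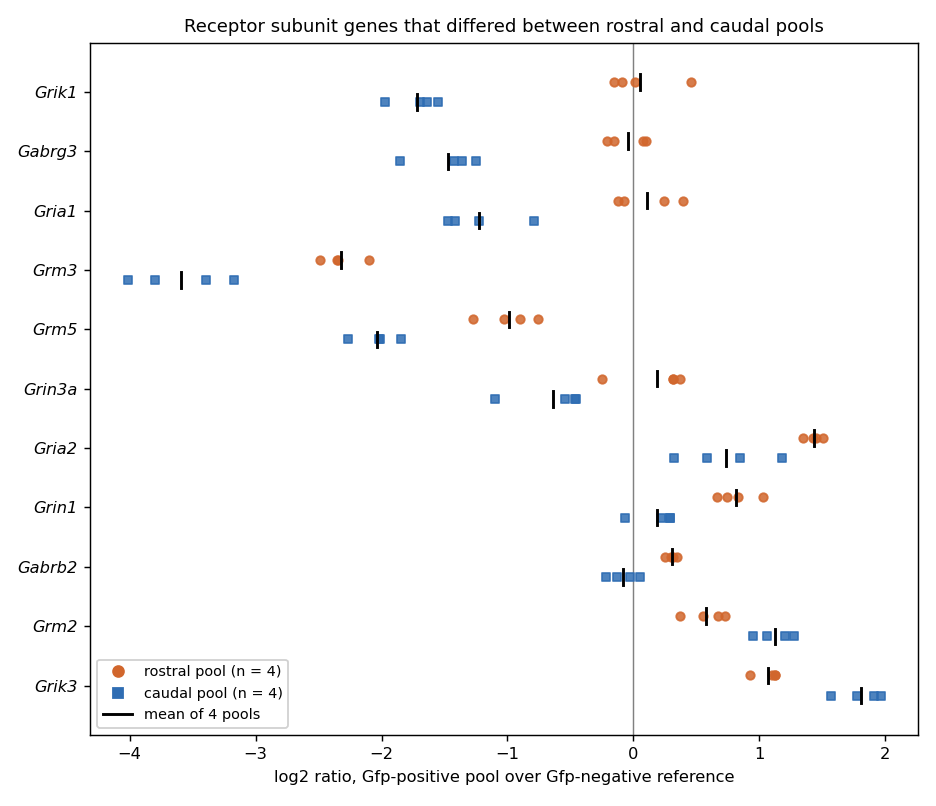
Log2 ratio of each pool to the Gfp-negative reference for 11 of the 13 receptor genes called between rostral and caudal pools, with 1 row per gene. Circles are the 4 rostral pools, squares the 4 caudal pools and black bars the means of 4 pools, and the rostral and caudal points of each gene do not overlap, with Grm2 and Grik3 the 2 genes whose caudal pools lie to the right.

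RefSeq promoter windows were at hand for 34 of the 50 genes and for 7 of the 13 called between the parts. The 250 bases before the annotated start are shown for both genes higher in caudal pools, Grik3 (GRCm38.p6, chr4:125490446-125490695, plus strand) and Grm2 (chr9:106656110-106656359, minus strand), and for the 2 of the 7 with the largest rostral difference, Gabrg3 (chr7:57387216-57387465, minus strand) and Grm3 (chr5:9725353-9725602, minus strand). Each is written 5′ to 3′ on the strand of its gene, and capitals mark GC boxes, GGGCGG or its reverse complement CCGCCC.
Grik3: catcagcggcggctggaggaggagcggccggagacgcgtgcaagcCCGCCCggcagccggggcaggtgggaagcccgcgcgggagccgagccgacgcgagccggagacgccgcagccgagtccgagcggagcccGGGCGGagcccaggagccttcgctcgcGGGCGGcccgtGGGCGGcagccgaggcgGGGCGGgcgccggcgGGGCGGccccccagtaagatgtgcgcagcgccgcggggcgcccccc
Grm2: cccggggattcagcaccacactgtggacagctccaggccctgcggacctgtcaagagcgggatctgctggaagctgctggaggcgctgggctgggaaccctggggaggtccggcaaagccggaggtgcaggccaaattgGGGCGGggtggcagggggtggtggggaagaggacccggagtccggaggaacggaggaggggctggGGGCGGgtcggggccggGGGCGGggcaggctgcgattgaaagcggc
Gabrg3: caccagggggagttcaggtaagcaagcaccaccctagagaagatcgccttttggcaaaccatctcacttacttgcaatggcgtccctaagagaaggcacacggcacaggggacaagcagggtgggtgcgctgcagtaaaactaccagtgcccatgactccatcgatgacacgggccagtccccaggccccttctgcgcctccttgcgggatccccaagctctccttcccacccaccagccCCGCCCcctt
Grm3: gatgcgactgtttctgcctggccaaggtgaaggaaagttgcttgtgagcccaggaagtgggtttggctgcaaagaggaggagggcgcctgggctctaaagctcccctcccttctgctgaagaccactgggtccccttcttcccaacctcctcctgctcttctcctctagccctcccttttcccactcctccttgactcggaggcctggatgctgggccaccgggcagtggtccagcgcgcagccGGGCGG
The Grik3 window held 6 GC boxes at a GC content of 82.0%, and the Grm2 window held 3 at 71.2%. The Gabrg3 and Grm3 windows held 1 each, at 60.4% and 62.4%, and the median GC content of all windows was 52.4%. GC boxes, the motif read by Sp-family factors, were found in 32.7% of 32851 windows of that length and in 19 of the 41 windows of members (46.3%). The cAMP response element TGACGTCA, searched on both strands, was in 1.55% of all windows and in 0 of 41, and the homeodomain core TAATTA was in 4.84% of all and in 1 of 41 (2.44%). A match is a run of letters in this window and was not tested for binding, and the motifs searched do not overlap each other.

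The AMPA receptor genes encode the channels that carry most fast excitation. All 4 were well above background on every array, and against the reference 3 were higher and 1 lower. Gria3 had the highest ratio of any member. Its log2 ratios were 2.59, 2.13, 2.48 and 2.05 in the 4 rostral pools and 2.17, 1.92, 2.46 and 2.35 in the 4 caudal pools. All pools lay far above the reference and the parts overlapped. The mean was 2.27 (SE 0.082, adjusted p = 7.49e-09), a 4.82-fold higher level in Gfp-positive cells, and the difference between the parts was 0.086 (95% interval -0.28 to 0.46). A probe for Gria3 outside the annotated table gave 1.65.

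Gria2 encodes the subunit that makes AMPA channels poorly permeable to calcium. Its ratios were 1.45, 1.43, 1.503 and 1.35 in the rostral pools and 0.85, 0.32, 0.58 and 1.18 in the caudal pools. All 8 pools were above the reference, the rostral ones within a narrow band, and the highest caudal pool stayed below the lowest rostral pool. Against the reference Gria2 was 1.08 (SE 0.088, adjusted p = 2.37e-06) higher, and rostral exceeded caudal by 0.70 (SE 0.18, adjusted p = 0.0485), or 1.62-fold. This call between the parts was near the threshold: it was lost when any 1 pool other than caudal 4 was left out (adjusted p 0.0878 to 0.117), and over the 20 alternatives the adjusted p ran from 0.0151 to 0.445. The second Gria2 probe of the table gave 1.89 against the reference and 0.63 between the parts (adjusted p = 0.0328 in a fit over probes).

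Gria1 was the AMPA gene with the largest difference between the parts. In the rostral pools its ratios were -0.13, -0.077, 0.39 and 0.24, and in the caudal pools they were -1.41, -1.23, -0.79 and -1.47. Rostral pools lay on either side of the reference level, while every caudal pool lay clearly below it. The rostral minus caudal difference was 1.33 (SE 0.17, adjusted p = 0.00290), a 2.52-fold higher rostral level, and it was 1.22 in the first slide row and 1.45 in the second. Averaged over the parts, Gria1 was the single AMPA gene below the reference, at -0.56 (SE 0.087, adjusted p = 2.69e-04).

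Gria4 had the brightest probe of the family. Its ratios were 0.59, 0.69, 0.91 and 0.67 in rostral and 0.81, 0.15, 0.54 and 0.70 in caudal pools. Every pool was above the reference and the parts overlapped. The mean was 0.63 (SE 0.068, adjusted p = 1.90e-05), and between the parts it was 0.16 (95% interval -0.14 to 0.47). A second, dimmer Gria4 probe gave 0.22, which was not called (adjusted p = 0.128 in the fit over probes).

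NMDA receptors are glutamate-gated channels that also need glycine or D-serine and that admit calcium. Of 7 genes, 6 were tested against the reference: Grin1 and Grin2d were higher, Grin2c and Grin3b lower, and Grin2b (-0.053) and Grin3a (-0.22) were not called. Grin1 encodes the subunit that every NMDA receptor contains, and its probe was the brightest of the family. Its ratios were 0.74, 0.83, 1.03 and 0.67 in rostral and -0.068, 0.29, 0.22 and 0.29 in caudal pools. The rostral pools were all above the reference and above all caudal pools, of which 1 lay below the reference. Grin1 was 0.50 (SE 0.067, adjusted p = 9.30e-05) above the reference and 0.63 (SE 0.13, adjusted p = 0.0239) higher in rostral than in caudal pools, or 1.55-fold. The difference between the parts lost its call without rostral 2, rostral 3, caudal 1 or caudal 3 (adjusted p 0.0562 to 0.0644). A second Grin1 probe, above background in the sample channel on 4 arrays, showed -0.038 between the parts, and with the mean over both probes the difference was 0.30 (adjusted p = 0.31; 0.0218 to 0.313 over the 20 alternatives).

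Grin3a encodes a glycine-binding subunit that lowers calcium entry and is known for its expression early in development. Its ratios were -0.25, 0.37, 0.32 and 0.31 in rostral and -0.46, -0.46, -1.10 and -0.54 in caudal pools. In rostral pools 3 lay above the reference and 1 below it, and all caudal pools lay below it without overlap. The difference was 0.83 (SE 0.20, adjusted p = 0.0379), or 1.78-fold. It lost its call when any 1 pool other than rostral 1 was left out (adjusted p 0.0603 to 0.0944). With the scanner's own processed signals it was 1.74 (adjusted p = 0.0671; 0.0187 to 0.488 over the alternatives), and with the slide row as a block the adjusted p was 0.0576.

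Grin2b, the glutamate-binding NMDA subunit that prevails before birth, is named here because its 2 probes disagreed. The probe of the table gave -0.56, -0.23, -0.76 and -0.10 in rostral and 0.64, 0.21, 0.15 and 0.23 in caudal pools. All rostral pools were below the reference and all caudal pools above it, and the difference of -0.72 (SE 0.19, adjusted p = 0.0565) was not called. A second probe, named Grin2b by its accession alone, ran the other way, with 0.49 between the parts (adjusted p = 0.0826 in the fit over probes) and 0.45 above the reference. No direction between the parts is therefore given for Grin2b.

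The other NMDA genes had dim probes or wide spreads. Grin2c was below the reference, at -0.81 (SE 0.22, adjusted p = 0.00779), with rostral pools at -0.58 ± 1.05 (SD, n = 4) and caudal pools at -1.05 ± 0.22. Grin2d was not well above background in the reference on 8 of 8 arrays. Its fitted ratio was 0.40 (SE 0.14, adjusted p = 0.0232), and that call was lost without rostral 4 (0.35, adjusted p = 0.0614) or caudal 4 (0.39, adjusted p = 0.0518) and under median centring (0.33, adjusted p = 0.0575). Grin3b was below the reference, at -0.43 (SE 0.16, adjusted p = 0.0337), a call kept only when rostral 3 was the pool left out. Without 1 of the other 7 pools its adjusted p was 0.053 to 0.0675, and without rostral 1 its ratio was -0.27. The processed signals put Grin2c at -1.32, Grin2d at 1.11 and Grin3b at -1.12.

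Kainate receptors are glutamate channels that act on both sides of the synapse. Grik1, Grik2 and Grik3 encode subunits that can form channels alone, whereas Grik4 and Grik5 encode subunits that need one of these as a partner. All 5 were tested: 3 were above the reference (Grik3, Grik4 and Grik5), Grik1 was below it and Grik2 was not called. The 2 called between the parts went opposite ways. Grik1 had the largest difference of any member. Its ratios were -0.093, 0.012, 0.45 and -0.16 in rostral and -1.97, -1.55, -1.70 and -1.64 in caudal pools. The rostral pools lay close to the reference level and the caudal pools far below it. Rostral exceeded caudal by 1.77 (SE 0.17, adjusted p = 8.18e-04), or 3.41-fold, with 1.72 in the first slide row and 1.82 in the second. Over both parts its mean was -0.83 (SE 0.085, adjusted p = 1.31e-05) relative to the reference.

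Grik3, whose GC-rich promoter window is printed above, had the opposite pattern. Its ratios were 0.93, 1.13, 1.13 and 1.10 in rostral and 1.97, 1.77, 1.57 and 1.91 in caudal pools. Every pool was above the reference, and every caudal pool was above every rostral pool. Grik3 was 1.44 (SE 0.048, adjusted p = 4.62e-09), or 2.71-fold, above the reference. Between the parts it was -0.73 (SE 0.097, adjusted p = 0.00304), a 1.66-fold higher caudal level, with -0.84 in the first slide row and -0.62 in the second. A probe for Grik3 outside the table, whose reference signal was not well above background on 8 of 8 arrays, gave 0.084 against the reference and -0.21 between the parts, neither called.

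Grik4 was 0.23 (SE 0.077, adjusted p = 0.0220) above the reference, with rostral pools at 0.51 ± 0.32 (SD, n = 4) above all caudal pools at -0.044 ± 0.15. Its difference between the parts, 0.55 (SE 0.16, adjusted p = 0.0732), was not called, and its call against the reference was lost without caudal 2, caudal 3 or caudal 4 (adjusted p 0.0511 to 0.0528) and was 0.15 without rostral 3. Grik5 was 0.22 (SE 0.052, adjusted p = 0.00358) above the reference. Grik2 varied most between pools among the kainate genes, from -0.41 to 1.49 in caudal pools, and at 0.50 (SE 0.21, adjusted p = 0.0521) it was not called, although it passed without rostral 1, caudal 1 or caudal 3 (adjusted p 0.0342 to 0.0478).

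Delta receptors resemble ionotropic glutamate receptors but are not opened by glutamate, and at the synapse they bind cerebellins. Grid1 ratios were 0.48, 0.70, 1.02 and 0.29 in rostral and 0.18, 0.27, 0.33 and 0.36 in caudal pools. All 8 pools were above the reference and the parts overlapped. The mean was 0.45 (SE 0.081, adjusted p = 6.79e-04) and the difference between the parts 0.33 (95% interval -0.031 to 0.70). The reference channel was well above background for this probe on 2 of 8 arrays, and the processed signals gave 1.28 against the reference.

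**Figure D2:**
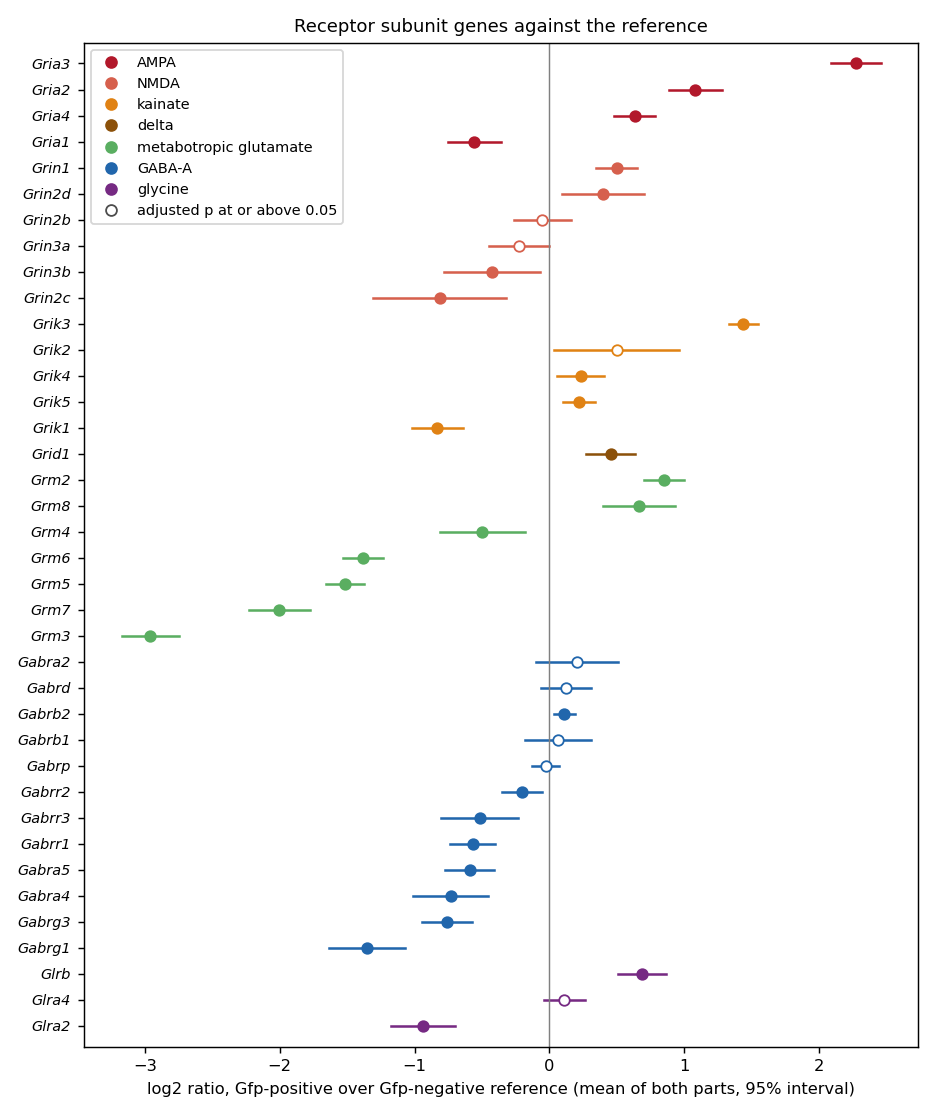
Mean log2 ratio of Gfp-positive cells to the reference over both parts, with its 95% interval, for 38 of the 41 tested members, coloured by family, with open circles where the adjusted p was at or above 0.05. Values run from -2.96 for Grm3 to 2.27 for Gria3, and 5 of the 7 tested metabotropic glutamate receptor genes lie to the left of 0.

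By the probes of the table, the metabotropic glutamate receptor genes had the lowest median ratio of the families, -1.38. Among 7 tested, 2 were higher and 5 lower than the reference. Those 5 include Grm4, for which a probe outside the table went the other way. Grm5 encodes a receptor that acts through phospholipase C, whereas Grm2, Grm3, Grm4, Grm6, Grm7 and Grm8 encode receptors that inhibit adenylate cyclase. Grm5, also found in radial glia and astrocytes, had the brightest probe. Its ratios were -1.27, -0.76, -1.03 and -0.90 in rostral and -2.02, -2.27, -1.84 and -2.01 in caudal pools. All 8 pools were below the reference and the caudal pools were lowest, with no overlap. Grm5 was -1.51 (SE 0.063, adjusted p = 1.83e-08), or 2.85-fold lower than in the reference, and 1.05 (SE 0.12, adjusted p = 0.00212) higher in rostral than in caudal pools, or 2.07-fold. A second Grm5 probe of the table showed neither difference (-0.033 against the reference and 0.15 between the parts), and the mean over both probes gave -0.77 and 0.60, both still called.

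Grm3 and Grm2 encode close relatives that both inhibit adenylate cyclase, and Grm3 is also a receptor of glial cells. Grm3 ratios were -2.35, -2.35, -2.49 and -2.10 in rostral and -3.79, -3.17, -3.40 and -4.01 in caudal pools. Every pool was well below the reference, the caudal pools most so, with no overlap. Grm3 was the lowest of all members, at -2.96 (SE 0.095, adjusted p = 3.44e-09), or 7.77-fold lower. Rostral exceeded caudal by 1.27 (SE 0.19, adjusted p = 0.00558), or 2.41-fold. Grm2 went the other way on both counts. Its ratios were 0.67, 0.55, 0.37 and 0.72 in rostral and 1.28, 1.06, 0.95 and 1.21 in caudal pools. All pools lay above the reference, and the caudal pools lay above the rostral pools. Grm2 was 0.85 (SE 0.066, adjusted p = 1.77e-06) above the reference and -0.54 (SE 0.13, adjusted p = 0.0426) between the parts, or 1.46-fold higher in caudal pools. This difference lost its call whichever of the 8 pools was left out (adjusted p 0.0547 to 0.116), while its size stayed between -0.60 and -0.48.

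Grm7 and Grm8 encode presynaptic receptors of the same inhibitory kind, and they lay on opposite sides of the reference. Grm7 ratios were -1.93, -1.61, -2.16 and -2.03 in rostral and -2.10, -2.57, -1.55 and -2.07 in caudal pools. All were far below the reference and the parts overlapped. The mean was -2.00 (SE 0.10, adjusted p = 7.67e-08), or 4.01-fold lower, and between the parts it was 0.14 (95% interval -0.31 to 0.60). Grm8 was 0.67 (SE 0.12, adjusted p = 6.53e-04) above the reference, in all 8 pools. Grm6, the glutamate receptor of retinal ON bipolar cells, was well above background in the reference on 8 arrays and in the Gfp-positive pools on none. Its ratios were -1.57, -1.15, -1.38 and -1.29 in rostral and -1.59, -1.47, -1.34 and -1.25 in caudal pools. Gfp-positive cells thus held at least 2.60-fold less of it than the reference (fitted adjusted p = 4.69e-08), and it was not tested between the parts. Grm4 was below the reference by the probe of the table, at -0.50 (SE 0.14, adjusted p = 0.00984). A probe outside the table was called in the opposite direction, at 0.18 (adjusted p = 0.0199 in the fit over probes), so no direction is given for Grm4.

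GABA-A receptors are pentamers, most often of alpha, beta and gamma subunits. Of 19 genes 15 were tested: 2 were above the reference, Gabrb2 among them, 8 below it and 5 not called, with a median of -0.20. Between the parts 4 were called, all higher in rostral pools, and the median difference was 0.27.

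Gabrg3 encodes a gamma subunit and had the largest difference of the GABA-A genes. Its ratios were -0.15, 0.098, -0.21 and 0.080 in rostral and -1.36, -1.42, -1.25 and -1.85 in caudal pools. The rostral pools lay at the reference level and the caudal pools clearly below it. The difference was 1.42 (SE 0.17, adjusted p = 0.00193), or 2.68-fold, with 1.36 in the first slide row and 1.49 in the second. Over both parts Gabrg3 was -0.76 (SE 0.083, adjusted p = 2.04e-05) relative to the reference. The second bright Gabrg3 probe of the table showed 0.094 between the parts and -0.11 against the reference, neither called, and with the mean over the probes the values were 0.51 and -0.30, both called.

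Gabrb2 encodes a beta subunit of the most common GABA-A receptor of the adult brain and had the brightest GABA-A probe. It had ratios of 0.25, 0.30, 0.32 and 0.35 in rostral and -0.030, -0.22, 0.055 and -0.13 in caudal pools. The rostral pools were all above the reference in a narrow band, and the caudal pools lay around it. The difference between the parts was 0.38 (SE 0.068, adjusted p = 0.0105), or 1.30-fold. Its mean of 0.11 (SE 0.034, adjusted p = 0.0138) above the reference was lost with the processed signals (0.043, adjusted p = 0.321; 1.7e-04 to 0.321 over the alternatives).

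Gabrg1 was the GABA-A gene furthest below the reference. Its ratios were -1.07, -0.59, -1.18 and -1.04 in rostral and -2.36, -1.84, -1.65 and -1.09 in caudal pools. All were below the reference, and the highest caudal pool fell among the rostral pools. The mean was -1.35 (SE 0.12, adjusted p = 5.84e-06), or 2.55-fold lower. Between the parts 0.76 (SE 0.25, adjusted p = 0.118) was not called, and without caudal 4 it was 0.98 (adjusted p = 0.0381). The alpha subunit genes Gabra4 (-0.73) and Gabra5 (-0.59) and the rho subunit genes Gabrr1 (-0.57), Gabrr2 (-0.20) and Gabrr3 (-0.52) were called below the reference. Of these, Gabrr2 lost its call without rostral 2 or caudal 4 (adjusted p 0.053 and 0.0553) and with the processed signals (-0.094, adjusted p = 0.228), and turned to 0.14 under median centring, where Gabrp turned from -0.029 to 0.33. Gabra2, Gabrb1, Gabrd and Gabrp were not called, at -0.029 to 0.20, but under median centring Gabra2 (0.41), Gabrb1 (0.41), Gabrd (0.28) and Gabrp were called above the reference.

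Some GABA-A genes lie side by side in the genome, and the gene order of the RefSeq table was used to group them. On chromosome 5 Gabrg1, Gabra2, Gabra4 and Gabrb1 were tested and 0 of 4 were called between the parts (0.016 to 0.76). On chromosome 4 Gabrr1 and Gabrr2 were both called below the reference and 0 of 2 were called between the parts (-0.096 to 0.094). On chromosome X none of Gabre, Gabra3 and Gabrq could be tested. Other groups, among them those with Gabrb2 and Gabrg3, both called higher in rostral pools, hold genes not reported by name and are not described here. The groups given are thus not a summary of all neighbours, and neighbours were not tested as groups.

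**Figure D3:**
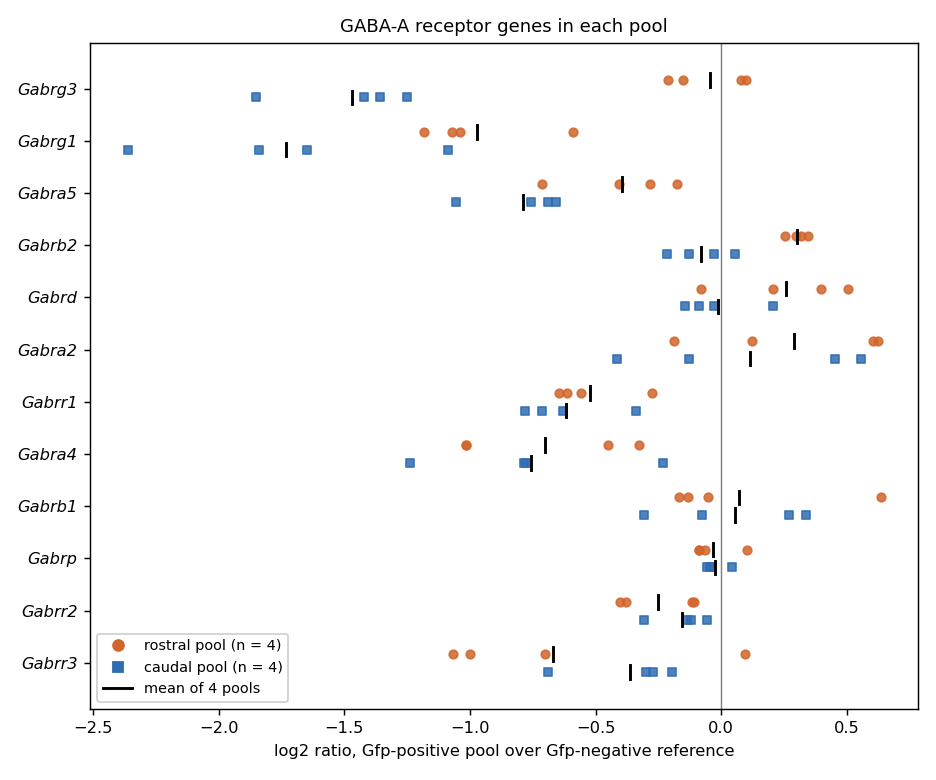
Log2 ratio of each pool to the reference for 12 of the 15 tested GABA-A receptor genes, ordered by the difference between the parts, with circles for the 4 rostral pools, squares for the 4 caudal pools and bars for the means of 4 pools. The rostral points of Gabrg3 and Gabrb2 lie to the right of their caudal points, and the points of Gabrg1 lie furthest to the left.

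Glycine receptors are chloride channels related to GABA-A receptors, built from alpha subunits with the beta subunit Glrb, which binds the scaffold gephyrin. Of 5 genes 3 were tested against the reference. Glra2, the main alpha subunit before birth, had the brightest probe of the family. Its ratios were -0.25, -0.65, -0.71 and -0.75 in rostral and -0.81, -1.39, -1.22 and -1.73 in caudal pools. All were below the reference, and the lowest rostral pool lay just above the highest caudal pool. Its mean was -0.94 (SE 0.11, adjusted p = 2.55e-05), and between the parts 0.69 (SE 0.21, adjusted p = 0.0949) was not called. Glrb went the other way, at 0.69 (SE 0.080, adjusted p = 3.16e-05) above the reference in all 8 pools. Glra4 was at 0.11 and not called, and Glra1 and Glra3 were not well above background on 8 of 8 arrays.

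The 10 genes not tested between the parts included Gabra3, Gabra6, Gabre, Gabrq, Glra1, Glra3 and Grin2a, also not tested against the reference, and Grm6. In the sample channel Gabra3 and Grin2a rose well above background on 2 and 3 arrays and the other 8 on none. Gabre was well above background in the reference on 2 arrays. Gabra6 encodes an alpha subunit of cerebellar granule cells. For Gabra3 a brighter probe named by accession alone lies outside the annotated table. It gave 0.28 against the reference and 0.71 between the parts (adjusted p = 0.0046 in the fit over probes).

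Placed against both comparisons together, the 11 genes higher in rostral pools held 6 below the reference (among them Grik1, Gabrg3, Gria1, Grm3 and Grm5), 3 above it (Gria2, Grin1 and Gabrb2) and 2 not called, Grin3a among them. Both genes higher in caudal pools, Grik3 and Grm2, were above the reference. By family, ionotropic and delta glutamate receptor genes had 5 rostral and 1 caudal call among 16 tested, metabotropic genes 2 and 1 among 6, GABA-A genes 4 and 0 among 15, and glycine receptor genes 0 among 3. Of the 13 calls, 5 were at least 2-fold: Grik1, Gabrg3, Gria1, Grm3 and Grm5. Those 5, Grik3 and Gabrb2 kept their call whichever pool was left out. For Gabrg3 and Grm5 this holds for the brightest probe. A second probe of the table gave 0.094 and 0.15 between the parts, neither called. The mean over probes gave 0.51 and 0.60, below 2-fold, and for Gabrg3 that mean includes a probe at background.

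**Figure D4:**
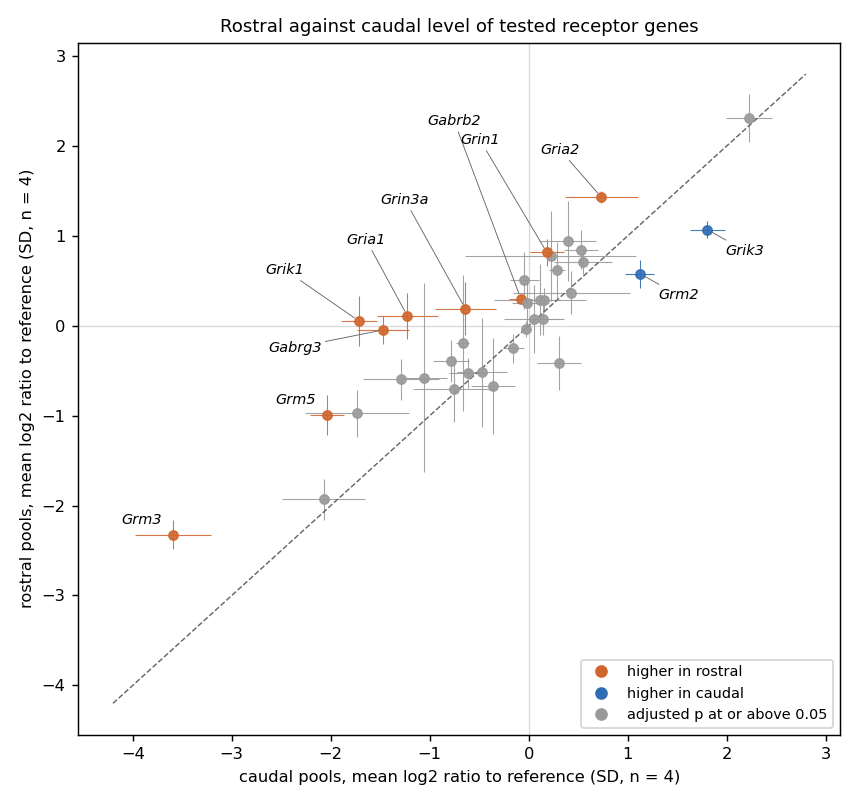
Mean log2 ratio to the reference in rostral pools (vertical axis) against caudal pools (horizontal axis) for 37 of the 40 members tested between the parts, with bars of 1 SD over 4 pools and a dashed line of equality. The 9 genes drawn as higher in rostral pools lie above the line, from Grm3 at lower left to Gria2 at upper right, and Grik3 and Grm2 lie below it.

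Markers of other cells also differed between the parts, and their part in these results was not tested. Of 10 GABAergic markers Dlx2 (3.13), Dlx1 (1.61) and Gad2 (1.09), which makes GABA, were higher in rostral pools, and Tal2 (-1.79) and Tal1 (-1.01) in caudal pools. All 10 were bright enough to be tested, and the mean over the list was -2.77 to -2.32 in rostral and -2.996 to -2.49 in caudal pools. Of 7 glutamatergic and red nucleus markers Tbr1 (1.84) was higher in rostral and Pou4f2 (-2.78) in caudal pools, Slc17a7 was not well above background on 8 of 8 arrays, and the list mean was -2.34 to -1.91 in rostral and -2.23 to -1.88 in caudal pools. Isl1 (0.65) was the 1 motor marker called and was rostral (list mean -1.46 to -1.07 in rostral and -1.21 to -0.40 in caudal pools). Fev (-0.82) was the 1 serotonergic marker called and was caudal (-2.38 to -2.29 and -1.85 to -1.26), with Tph2 not well above background on 8 of 8 arrays.

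Of the 8 progenitor and radial glia markers, the type of cell in which Grm3 and Grm5 are also known, Vim (-0.63) was called, higher in caudal pools. At an unadjusted p below 0.05 by limma's test there were 3: Vim, and Fabp7 (0.37) and Sox9 (0.60), both higher in rostral pools. The median difference over the list was -0.0056. The list mean was -3.51 to -2.99 in rostral and -3.49 to -3.03 in caudal pools. Lists with no call by limma between the parts were these. Oligodendrocyte precursor markers had 0 of 5 (1 at an unadjusted p below 0.05, with list means of -3.68 to -2.92 and -3.94 to -3.42). Endothelial markers had 0 of 4 tested (1 unadjusted, -1.39 to -0.87 and -1.26 to -0.93), and erythroid markers 0 of 5 tested (0 unadjusted, -3.995 to -3.67 and -4.15 to -3.56). Microglia markers had 0 of 5 (0 unadjusted), and their mean varied widely among pools of both parts (-0.67 to 1.01 and -0.71 to 1.02). Pericyte markers had 0 of 4 tested (1 unadjusted), with 1 rostral pool far above the others (-3.25 to -1.16 and -3.61 to -3.19).

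Neuronal maturity and the dopaminergic signal were also compared between the parts. Of 9 pan-neuronal markers Syt1 (0.67), a synaptic vesicle protein, and Rbfox3 (0.30), the NeuN antigen of mature neurons, were higher in rostral pools and Tubb3 (-0.39) in caudal pools, with list means of 0.32 to 0.39 and 0.16 to 0.30. Of 8 dopaminergic markers Slc18a2 (-0.56), the vesicular monoamine transporter, was called, higher in caudal pools, and the list means were 3.74 to 3.93 and 3.83 to 3.91. Whether these markers and the receptor genes come from the same cells was not tested.

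Proteins that work with these receptors were followed in 5 lists. Among 18 tested auxiliary subunits and ligands of AMPA, kainate and delta receptors, 8 were above and 7 below the reference (median 0.042). Cbln1, a cerebellin that binds delta receptors, was 2.38 (SE 0.056, adjusted p = 4.28e-10) above the reference and 0.89 (SE 0.11, adjusted p = 0.00255) higher in rostral pools. Shisa6, which keeps AMPA receptors from desensitising, was 2.13 (SE 0.059, adjusted p = 1.24e-09) above the reference and -0.94 (SE 0.12, adjusted p = 0.00255) between the parts, thus higher in caudal pools. Cbln4, another cerebellin, was also higher in caudal pools, at -1.56 (SE 0.37, adjusted p = 0.0386), with rostral pools spread from -0.43 to 1.67. Cacng2 and Cacng3, which encode AMPA receptor regulatory proteins, were 1.30 and 1.14 above the reference. The median difference between the parts was 0.027, with 1 rostral and 2 caudal calls.

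Of 19 glutamate receptor scaffold genes 7 were above and 4 below the reference (median 0.081), and 0 were called between the parts by limma at the adjusted threshold, with 4 of the 19 at an unadjusted p below 0.05 and a median of 0.19. Homer2, which links metabotropic receptors to calcium stores, was 1.58 (SE 0.079, adjusted p = 6.56e-08) above the reference, and Grip1, which binds AMPA receptors, 0.87 (SE 0.066, adjusted p = 1.47e-06). Dlg2 was 0.59 above and Dlgap1 -1.26 relative to the reference.

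Of 17 partners of GABA-A and glycine receptors 9 were above and 3 below the reference (median 0.10). Iqsec3, a protein of inhibitory synapses, was 0.89 (SE 0.038, adjusted p = 2.37e-08) above the reference and, as the 1 gene of this list called between the parts, 0.46 (SE 0.076, adjusted p = 0.00814) higher in rostral pools, where the list's median was 0.080. Lhfpl4 (0.50) and Hap1 (0.49) were above the reference. Of 4 tested GABA-B genes Gabbr1 (0.20) was above, and Kctd8 (-1.49) and Kctd12 (-0.37), auxiliary subunits of the receptor, were below the reference (median -0.11), and Kctd12 was -1.16 (SE 0.25, adjusted p = 0.0250) between the parts, thus higher in caudal pools (median 0.088).

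The chloride transporters set whether GABA and glycine channels excite or inhibit. Slc12a2, which brings chloride in, was -0.63 (SE 0.049, adjusted p = 1.70e-06) relative to the reference, and the difference between the parts was 0.23, not called. Slc12a5, the neuronal exporter that matures with age, was -0.10 against the reference (adjusted p = 0.0519) and 0.68 (SE 0.085, adjusted p = 0.00255) higher in rostral than in caudal pools. Its rostral pools spanned 0.017 to 0.41 and its caudal pools -0.51 to -0.30. Slc12a7, a related exporter, was 0.79 (SE 0.19, adjusted p = 0.0454) higher in rostral pools, and Clcn2 (0.47), a chloride channel gene, was above the reference. In all, 2 of these 5 genes were above and 1 below the reference (median -0.043), and 2 were higher in rostral pools (median 0.23).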

How the data were processed

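The deposited scanner files hold raw intensity values per spot (median pixels of the spot and of the background around it, for Cy3 and Cy5). The authors obtained them with Agilent Feature Extraction, version 10.7.3.1 per the submitters' processing notes. RMA is also named in those notes without a version or role. In R 4.3.3 with limma 3.58.1 (files read with data.table, version 1.17.8), background was corrected by normexp (offset 50), arrays were normalized by loess with control and outlier spots at weight 0, and spots of 1 probe were averaged. Between 210 and 298 spots per array were outliers, and saturated spots (at most 2) were kept. The log2 ratio is Cy3 (sorted cells) over Cy5 (reference), and dyes were not swapped, so a dye effect of a probe stays in every ratio to the reference and cancels between the parts.

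Of 55681 probes, 27453 were named by accession through RefSeq (GRCm38.p6), 4180 by the symbol of the deposited annotated table and 24048 not. Members were named by that symbol, and 13 probes named as members by accession alone stood for no gene. A gene was tested against the reference if well above background in either channel on at least 4 of 8 arrays, and between the parts if so in the sample channel. limma's lmFit and eBayes with an intensity trend were fitted on all genes tested in each comparison, with no block, and p-values were adjusted by Benjamini-Hochberg. The fit over probes is the same fit with every probe as a feature. For "at least" folds, the dim side is, per array, the probe's own signal or, where higher, the lowest signal of any probe well above background, per channel after loess and Aquantile, open to dye bias. The scripts were tested on simulated data. In a table of the whole series, 8 columns of values match no sample label and were not used.

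Values in every pool are given for genes at least 2-fold from the reference, genes called between the parts and the brightest gene of each family. Pathway genes are the up to 4 with the smallest p per list. The members, the 5 pathway and 12 marker lists and these rules were chosen with earlier results of these data known. Alternatives changed the background correction, offset, normalization, filter, probe rule, trend, block, slide row and pools. Protein sequences were not used here. Some receptor and pathway genes enter the counts and are not reported by name here.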

Additional observations from a re-analysis of the deposited data

Results flagged for a closer look

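Within the groups of 4 pools, 1 pool stood apart from the other 3 by Dixon's criterion in 7 of 82 groups of the 41 tested members, where chance gives about 1 in 20 groups. In rostral pools these were Gabrb1 in rostral 2 (log2 ratio 0.635, the others -0.17 to -0.051), Gabrp in rostral 4 (0.103), Grik3 in rostral 1 (0.925, the others 1.10 to 1.13) and Grin3a in rostral 1 (-0.247, the others 0.31 to 0.37). In caudal pools they were Grik4 in caudal 1 (-0.267), Grin2b in caudal 1 (0.642) and Grin3a in caudal 3 (-1.10, the nearest other -0.54). No pool accounted for more than 2 of the 7.

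In Grin2b all caudal pools lay above the reference and all rostral pools below it, with a rostral minus caudal difference of -0.72. The difference did not pass limma's test (adjusted p = 0.0565), and the second Grin2b probe gave 0.49.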

How the results depend on the processing

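The 32 receptor genes called against the reference became 25 to 35 over 20 alternatives, 1 of which (probes named by accession may stand for a gene) was chosen after seeing the data. Among genes called in the main fit or in the alternative, signs turned for Gabrp (0.33) and Gabrr2 (0.14) under median centring. They also turned for Grin2b (0.45) with the accession-named probe and for 1 gene not named here with the mean over probes. Values called in neither fit could change sign too, such as Grin2b with the processed signals (0.016). With the accession-named probe the Grin2b difference between the parts was 0.49 in place of -0.72, neither of them called. Leaving out 1 pool gave 28 to 32, and 28 of the 32 genes kept their call each time. Over all genes, the 13359 called became 12700 to 12970 without 1 pool.

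Between the parts, the 13 genes called became 8 to 11 without 1 pool, with 8 without rostral 2, rostral 3, caudal 1 or caudal 3. Over all genes, the 1127 called became 712 to 997 without 1 pool. Of the 13 genes, 8 kept their call each time. In the first slide row alone 0 were called by limma, as over all genes (2389 of which had an unadjusted p below 0.05), and in the second row alone 1 was (178 over all genes, 2484 unadjusted). The labels do not say whether same-numbered rostral and caudal pools share embryos. Deviations from the group means of same-numbered pools correlated at -0.063 to 0.019, and those of other-numbered pools at -0.094 to 0.105. Such correlations cannot show whether the pools were paired. With the number as a replicate block 8 members were called, 7 rostral and 1 caudal, and 718 genes over the whole array. The other settings gave 10 to 14, among them 12 with the processed signals, and all 13 genes kept their sign under every alternative run.

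The limits are these. There are 4 pools a part, 1 reference on 1 slide and no dye swap. With the processed signals, some called values change by more than 1.5 times. These are values of the dim probes of Grid1, Grin2c, Grin2d, Grin3a, Grin3b, Grm4 and Grm6 and of the brighter ones of Gabrb2 and Gabrr2. Values that were not called could move as much, such as Glra4 from 0.11 to 0.66 and Grik2 from 0.50 to 0.77 against the reference. Probes of Gabrg3, Grik3, Grin1, Grin2b, Grm4 and Grm5 disagree, and whether they read different transcripts was not tested. The array reads RNA, not receptors.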
